A study of Mus musculus with 4 samples.

Results

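The genes of the G1 cyclins, their kinases and their inhibitors were followed across 4 mouse RNA-seq libraries. The 10 members were taken by gene symbol from a deposited table of 23235 genes, and all 10 were found. They are the D-type cyclins Ccnd1, Ccnd2 and Ccnd3, the E-type cyclins Ccne1 and Ccne2, the kinases Cdk4 and Cdk6, the inhibitors Cdkn1b and Cdkn2a, and Rb1, the substrate on which the kinases converge. Each group was 1 library. DKO_NP and WT_NP were neural progenitor cells (NPCs) at day 6, made from embryonic stem (ES) cells grown in suspension aggregates (embryoid bodies) for 4 days, with retinoic acid for 2 days after that. DKO_ES and WT_ES were the undifferentiated ES cells at day 0, in serum medium with leukemia inhibitory factor. DKO cells lack the de novo DNA methyltransferase genes Dnmt3a and Dnmt3b, and WT cells are wild type of the J1 background. All 4 libraries carry the strain label 129S4/SvJae. ES cells had been kept on irradiated feeder cells in earlier passages and were then moved onto gelatin. The labels do not say whether the knockout line is 1 clone, and no group has a second library here.

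In G1, the phase before DNA replication, D-type cyclins bind and activate CDK4 and CDK6, which phosphorylate the retinoblastoma protein encoded by Rb1 and so release E2F transcription factors. E-type cyclins then drive CDK2 and entry into S phase. The Cdkn1b product p27 restrains cyclin E kinase, and Cdkn2a encodes both the CDK4 and CDK6 inhibitor p16INK4a and, from a separate first exon, p19ARF, which stabilises p53. Mouse ES cells are known for a short G1 with high cyclin E kinase activity, and G1 lengthens as they differentiate.

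Levels are FPKM, reads corrected for gene length and for the number of reads sequenced, as the authors deposited them. They were divided here by a scaling factor per library (0.908 for DKO_NP, 0.671 for WT_NP, 1.25 for DKO_ES and 1.32 for WT_ES). Each factor is the median ratio of that library to the geometric mean of all 4 over 11334 genes at or above 1 FPKM in every library. Folds are ratios of scaled FPKM, and their 95% intervals cover counting error alone, from approximate read numbers that were, among the members, lowest for Cdkn2a in WT_NP (68 reads) and highest for Cdk4 in DKO_NP (21083 reads). With 1 library per group no difference has a replicate check, and no test was run. Genes were counted at a 2-fold difference, that is, at a log2 ratio of 1 in size with 1 scaled FPKM added to each value, where a gene reached 1 FPKM in at least 1 of the pair. All 10 members passed that filter in every comparison. In bulk RNA, fewer cells of a type and less RNA per cell cannot be told apart.

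Both deleted genes had lower RNA in DKO than in WT cells. Dnmt3a stood at 4.56 scaled FPKM in DKO_NP and 25.7 in WT_NP, and at 9.82 in DKO_ES and 26.7 in WT_ES. Dnmt3b stood at 5.75 in DKO_NP and 14.9 in WT_NP, and at 11.1 in DKO_ES and 106 in WT_ES. RNA of both genes remained, and a value per gene does not show from which exons. Marker genes of other lineages differed between the NPC libraries. Over all 13601 genes compared, 4.76% were at least 2-fold higher in DKO_NP than in WT_NP and 7.99% lower. Summed scaled FPKM of 6 neural progenitor markers was 196 in DKO_NP and 65.5 in WT_NP, with 5 of 6 at least 2-fold higher, and that of 5 ES cell markers was 91.4 in DKO_NP and 35.3 in WT_NP, with 3 of 5 higher. Sums were lower in DKO_NP for 5 endoderm markers (15.5 in DKO_NP, 123 in WT_NP; 4 of 5 at least 2-fold lower), 4 markers of mesoderm and blood vessel (14.1 in DKO_NP, 93.3 in WT_NP; 3 of 4 lower) and 3 embryonic globins of primitive red blood cells (80.3 in DKO_NP, 1138 in WT_NP; 3 of 3 lower). The sum of 4 trophoblast markers was 283 in DKO_NP and 572 in WT_NP (1 higher, 2 lower), of 5 fibroblast markers 34.5 in DKO_NP and 49.9 in WT_NP (1 lower of 3 compared), and of 4 neuron markers 40.5 in DKO_NP and 11.2 in WT_NP (2 higher). ES cell markers summed to 2423 in DKO_ES and 2329 in WT_ES, fibroblast markers to 12.5 in DKO_ES and 45.0 in WT_ES, with Fap at 0 in both, and trophoblast markers to 42.7 in DKO_ES and 86.5 in WT_ES. The trophoblast markers did not all go 1 way. Approximate reads in DKO_ES and WT_ES were 430 and 1414 for Krt8, 616 and 1103 for Krt18, and 9 and 14 for Gata3. For Ascl2 they were 228 and 100. Neuron markers summed higher in the ES cell libraries than in either NPC library, at 149 in DKO_ES and 153 in WT_ES. Of the 4, Stmn2 had the most ES cell reads, about 3329 in DKO_ES and 3916 in WT_ES, against 142 in DKO_NP and 111 in WT_NP. Dcx went the other way, with about 45 reads in DKO_NP and 25 in WT_NP, against 1 in DKO_ES and fewer in WT_ES. These read numbers are not adjusted for depth. Neural progenitor markers summed to 25.3 in DKO_ES and 18.9 in WT_ES, with Fabp7 at 0 in WT_ES. No marker of these lists was at 0 in an NPC library. The labelled neural progenitor cells therefore also held RNA of other lineages. The part of these markers in the members' differences between DKO_NP and WT_NP was not tested. Nor was that of the neural progenitor, fibroblast and trophoblast markers in the differences between DKO_ES and WT_ES.

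**Figure D1:**
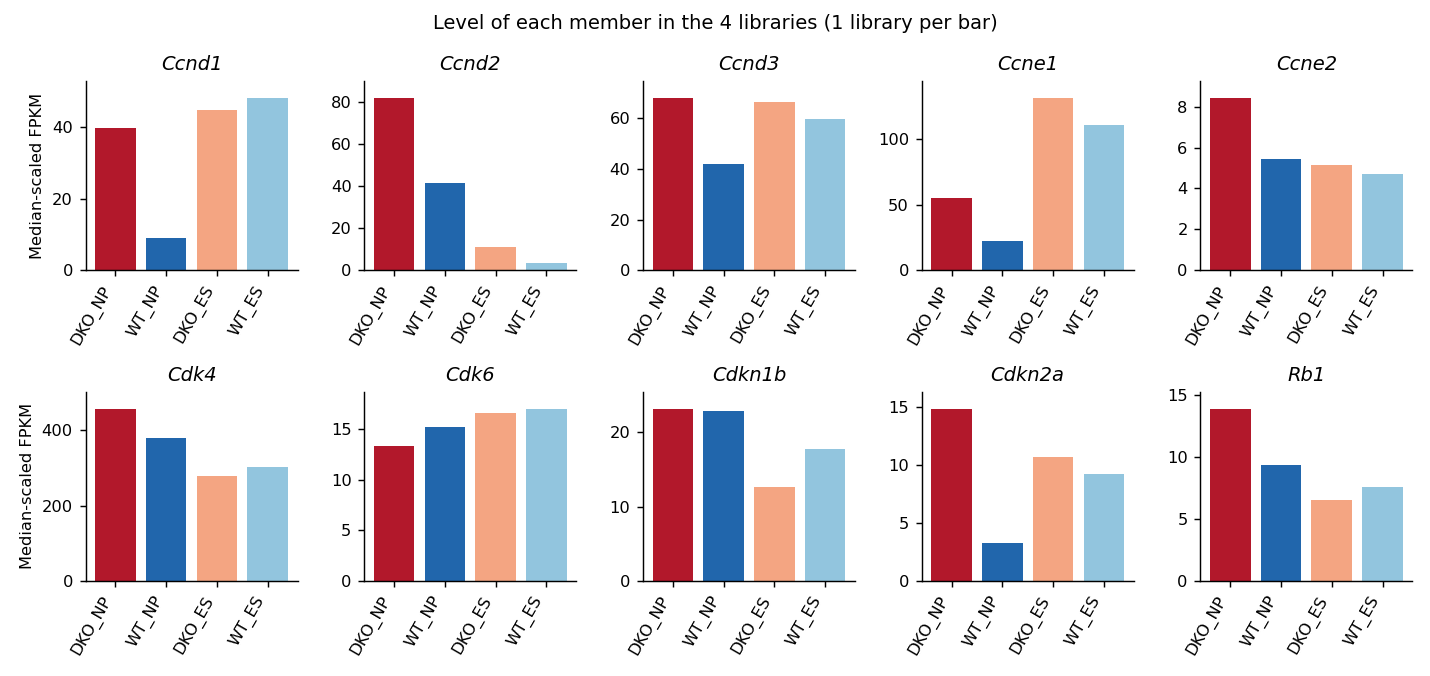
Level of each of the 10 members in DKO_NP, WT_NP, DKO_ES and WT_ES, in median-scaled FPKM on an axis from 0, with 1 library per bar and no error bar. Ccnd2 is highest in the NPC libraries (81.7 in DKO_NP and 41.5 in WT_NP), while Ccnd1, Ccne1 and Cdkn2a are lowest in WT_NP.

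Promoter sequence was matched by symbol for 6 of the 10 members, Ccnd3, Ccne1, Cdk4, Cdk6, Cdkn1b and Cdkn2a, in 8 windows of 250 bases directly before an annotated RefSeq start on GRCm38.p6. The other 4 are Ccnd1, Ccnd2, Ccne2 and Rb1. The expression values were made on the older build mm9, so these coordinates serve for the sequences alone. The windows of Cdkn2a and Ccne1 are shown because these genes stood more than 2-fold apart between DKO_NP and WT_NP, and because the knockout removes enzymes that methylate CpG sites. Capitals mark each CpG. The upstream Cdkn2a start, used for p19ARF, has 40 CpG in chr4:89294620-89294869 (minus strand), and the downstream start, used for p16INK4a, has 7 in chr4:89282193-89282442 (minus strand). Ccne1 has 34 CpG in chr7:38107491-38107740 (minus strand). The median over 32841 such windows was 6 CpG. All sequences run 5′ to 3′ toward the start.
Cdkn2a upstream start: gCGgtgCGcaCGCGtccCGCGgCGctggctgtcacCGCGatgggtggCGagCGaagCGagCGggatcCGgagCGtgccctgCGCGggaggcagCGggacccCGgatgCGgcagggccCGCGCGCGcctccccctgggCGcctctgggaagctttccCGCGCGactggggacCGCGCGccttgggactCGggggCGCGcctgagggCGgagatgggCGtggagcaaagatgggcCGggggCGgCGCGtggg
Cdkn2a downstream start: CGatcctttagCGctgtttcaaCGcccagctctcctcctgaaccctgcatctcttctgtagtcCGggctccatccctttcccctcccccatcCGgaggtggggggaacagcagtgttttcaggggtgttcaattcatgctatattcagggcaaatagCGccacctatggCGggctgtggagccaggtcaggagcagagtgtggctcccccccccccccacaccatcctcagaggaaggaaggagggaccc
Ccne1: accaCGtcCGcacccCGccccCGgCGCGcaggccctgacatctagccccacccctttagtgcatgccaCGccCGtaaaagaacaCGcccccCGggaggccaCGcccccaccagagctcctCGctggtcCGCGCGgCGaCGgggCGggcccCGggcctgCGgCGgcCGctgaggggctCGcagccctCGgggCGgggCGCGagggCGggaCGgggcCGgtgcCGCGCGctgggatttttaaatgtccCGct

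The 2 Cdkn2a starts lay at percentiles 98.7 and 53.7 of CpG number among all windows, and Ccne1 at percentile 96.5. The remaining windows held 28 CpG for Cdkn1b, 22 for Cdk6, 19 and 11 for the 2 Ccnd3 starts and 13 for Cdk4. Values per gene join the 2 Cdkn2a starts, so the expression table does not show which was used. Methylation was not analysed here.

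Cdk4 is shown because it was the most abundant member in every library. Its window, chr10:127063285-127063534 (plus strand), holds 4 copies of CACGTG, the E-box letters bound by Myc and related factors, in capitals.
Cdk4: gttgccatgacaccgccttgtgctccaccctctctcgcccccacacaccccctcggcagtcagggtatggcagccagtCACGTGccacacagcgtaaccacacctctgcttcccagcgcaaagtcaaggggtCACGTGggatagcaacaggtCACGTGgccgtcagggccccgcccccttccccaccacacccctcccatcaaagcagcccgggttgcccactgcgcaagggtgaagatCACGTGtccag

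CACGTG was present in 6.02% of all windows, and among the members also in that of Cdk6, with 1 copy. Letters of E2F sites (TTTCCCGC, TTTCGCGC or TTTGGCGC, either strand) were present in 1.53% of all windows and in 1 member window, the upstream start of Cdkn2a. GGGCGG, the GC box, was present in 32.7% of windows and in 6 of the 8 of members, with 4 copies for Ccne1. CCAAT was present in 33.9% of windows, and in those of Cdkn1b (2 copies) and of 1 Ccnd3 start (1 copy). TATAAA was present in 12.4% of windows and in that of Cdk6. All motifs were searched on both strands; the E2F letters can overlap other motifs, and a match describes letters and is not evidence of a bound factor.

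The mix of D-type cyclin RNA differed between NPC and ES cell libraries in both genotypes. Ccnd2, the D-type cyclin known from neural progenitors of the developing brain, stood at 81.7 scaled FPKM in DKO_NP, 41.5 in WT_NP, 10.99 in DKO_ES and 3.31 in WT_ES. It was higher in each NPC library than in its ES cell library, and higher in each knockout library than in its wild type. WT_NP was 12.5-fold above WT_ES (interval 11.3 to 13.96) and DKO_NP 7.44-fold above DKO_ES (7.02 to 7.89). Before differentiation, Ccnd2 was already 3.32-fold higher in DKO_ES than in WT_ES (2.96 to 3.74). Between NPC libraries it was 1.97-fold higher in DKO_NP (1.91 to 2.03), short of the 2-fold mark, with a log2 ratio of 0.96.

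Ccnd1, the D-type cyclin that responds most readily to growth factors, stood at 39.9 scaled FPKM in DKO_NP, 8.90 in WT_NP, 44.8 in DKO_ES and 48.2 in WT_ES. Only WT_NP was low, and the other 3 libraries lay within 39.9 to 48.2. Ccnd1 was 5.41-fold lower in WT_NP than in WT_ES (5.01 to 5.86), and 1.12-fold lower in DKO_NP than in DKO_ES (1.07 to 1.18), a difference whose sign turned when libraries were scaled to their FPKM sum or to housekeeping genes. DKO_NP was 4.48-fold above WT_NP (4.15 to 4.85), while DKO_ES was 0.930 times WT_ES (0.885 to 0.977).

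Ccnd3, the third D-type cyclin, varied least among them, at 67.9 scaled FPKM in DKO_NP, 42.1 in WT_NP, 66.4 in DKO_ES and 59.6 in WT_ES. It was 1.42-fold lower in WT_NP than in WT_ES (1.33 to 1.51) and 1.61-fold higher in DKO_NP than in WT_NP (1.52 to 1.71). A processed pseudogene, Ccnd3-ps, is annotated, and how reads matching both were assigned is not given in the sources used here.

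Shares within a library do not depend on the scaling between libraries. FPKM are per length, so the 3 cyclins can be set against each other. Ccnd2 made up 43.1% of the summed D-type cyclin FPKM in DKO_NP, 44.9% in WT_NP, 8.99% in DKO_ES and 2.98% in WT_ES. Ccnd1 made up 21.1% in DKO_NP, 9.62% in WT_NP, 36.7% in DKO_ES and 43.4% in WT_ES. Ccnd3 held the remainder, 35.8% in DKO_NP, 45.5% in WT_NP, 54.3% in DKO_ES and 53.6% in WT_ES. The Ccnd2 share of the NPC libraries was thus alike in the 2 genotypes, and the Ccnd1 share was not. The sum itself was 189.6 scaled FPKM in DKO_NP, 92.5 in WT_NP, 122 in DKO_ES and 111 in WT_ES.

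**Figure D2:**
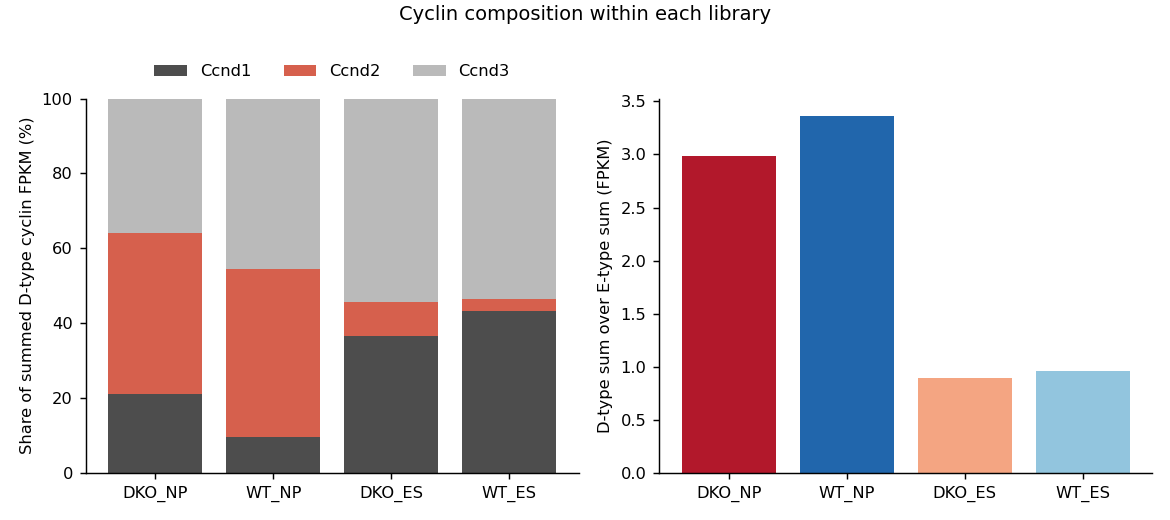
Left, the share of Ccnd1, Ccnd2 and Ccnd3 in the summed D-type cyclin FPKM of each library (percent); right, the summed D-type over the summed E-type cyclin FPKM. Ccnd2 takes 43.1% and 44.9% in the NPC libraries, and the ratio is 2.99 in DKO_NP and 3.36 in WT_NP, against 0.897 in DKO_ES and 0.960 in WT_ES.

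The 2 E-type cyclins differed in level and in pattern. Ccne1 stood at 55.1 scaled FPKM in DKO_NP, 22.1 in WT_NP, 131 in DKO_ES and 111 in WT_ES, so that both ES cell libraries were above both NPC libraries. It was 5.02-fold lower in WT_NP than in WT_ES (4.69 to 5.38) and 2.38-fold lower in DKO_NP than in DKO_ES (2.27 to 2.50). DKO_NP was 2.49-fold above WT_NP (2.32 to 2.68). DKO_ES was 1.18-fold above WT_ES (1.132 to 1.232), a sign that turned with scaling to the FPKM sum.

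Ccne2, which encodes the second E-type cyclin, was low throughout, at 8.41 scaled FPKM in DKO_NP, 5.42 in WT_NP, 5.13 in DKO_ES and 4.69 in WT_ES. It was 1.55-fold higher in DKO_NP than in WT_NP (1.36 to 1.77) and 1.64-fold higher in DKO_NP than in DKO_ES (1.42 to 1.90). Ccne1 made up 86.8% of the E-type sum in DKO_NP, 80.3% in WT_NP, 96.2% in DKO_ES and 95.95% in WT_ES. The E-type sum was 63.5 scaled FPKM in DKO_NP, 27.5 in WT_NP, 136 in DKO_ES and 116 in WT_ES. D-type cyclin RNA was 2.99 times that of E-type cyclins in DKO_NP, 3.36 times in WT_NP, 0.897 times in DKO_ES and 0.960 times in WT_ES. Although each sum was higher in DKO_NP than in WT_NP, their ratio separated day 6 from day 0 more than it separated the genotypes.

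Of the kinases, Cdk4 was 1.63 times as high in its highest library as in its lowest, and Cdk6 1.28 times. Cdk4 stood at 456 scaled FPKM in DKO_NP, 379 in WT_NP, 279 in DKO_ES and 302 in WT_ES, above 97% of the genes at or above 1 FPKM in each library (percentiles 97.0 to 98.2). It was 1.63-fold higher in DKO_NP than in DKO_ES (1.60 to 1.67). The WT_NP level was 1.25 times that of WT_ES (1.22 to 1.28), and this order turned as deposited and with scaling to the FPKM sum. Cdk6, the other partner of D-type cyclins, had the narrowest range of the 10 members, at 13.3 scaled FPKM in DKO_NP, 15.2 in WT_NP, 16.6 in DKO_ES and 17.0 in WT_ES. The Cdk4 level was 34.3 times that of Cdk6 in DKO_NP, 24.95 times in WT_NP, 16.8 times in DKO_ES and 17.8 times in WT_ES. Kinase RNA, Cdk4 and Cdk6 together, was 2.48 times that of the D-type cyclins in DKO_NP, 4.26 times in WT_NP, 2.42 times in DKO_ES and 2.88 times in WT_ES. By this measure WT_NP stood apart from the other 3 libraries.

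Of the inhibitors, Cdkn2a was low in WT_NP and Cdkn1b was not. Cdkn2a stood at 14.9 scaled FPKM in DKO_NP, 3.29 in WT_NP, 10.7 in DKO_ES and 9.22 in WT_ES. As for Ccnd1, WT_NP was the single low library. Cdkn2a was 2.80-fold lower in WT_NP than in WT_ES (2.08 to 3.80) and 1.39-fold higher in DKO_NP than in DKO_ES (1.14 to 1.69). DKO_NP was 4.52-fold above WT_NP (3.46 to 5.98), and DKO_ES 1.16-fold above WT_ES (0.924 to 1.46), a sign that turned with scaling to the FPKM sum. Its difference between WT_NP and WT_ES was under 2-fold on the log2 scale with scaling to housekeeping genes or with a pseudocount of 5.

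Cdkn1b, the p27 gene, stood at 23.1 scaled FPKM in DKO_NP, 22.9 in WT_NP, 12.7 in DKO_ES and 17.8 in WT_ES. The NPC libraries were level with each other (1.01-fold, 0.923 to 1.11). DKO_ES was 1.40-fold below WT_ES (1.23 to 1.60), and DKO_NP was 1.82-fold above DKO_ES (1.62 to 2.05). D-type cyclin RNA was 8.20 times Cdkn1b in DKO_NP, 4.04 times in WT_NP, 9.63 times in DKO_ES and 6.24 times in WT_ES. Cdkn1b was 1.56 times Cdkn2a in DKO_NP, 6.95 times in WT_NP, 1.18 times in DKO_ES and 1.93 times in WT_ES.

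Rb1 stood at 13.9 scaled FPKM in DKO_NP, 9.38 in WT_NP, 6.50 in DKO_ES and 7.61 in WT_ES. DKO_NP was 2.14-fold above DKO_ES (1.94 to 2.36), though the log2 ratio with the pseudocount was 0.99, just under the mark, and it passed with a pseudocount of 0.1. That log2 ratio also passed with scaling to the FPKM sum (1.56) or to housekeeping genes (1.20), and was 0.57 as deposited. Between NPC libraries Rb1 was 1.48-fold higher in DKO_NP (1.36 to 1.60), and DKO_ES was 1.17-fold below WT_ES (1.04 to 1.31).

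Some of these genes share exon sequence with neighbours, and whether the kit kept strand is not stated in the labels. Rb1 shares 488 and 408 of its 6015 annotated exon bases with Rcbtb2 and Lpar6. Rcbtb2 stood at 40.2 scaled FPKM in DKO_NP, 36.5 in WT_NP, 10.5 in DKO_ES and 8.22 in WT_ES, and Lpar6 at 13.2 in DKO_NP, 22.5 in WT_NP, 3.69 in DKO_ES and 3.60 in WT_ES. Their part in the Rb1 values was not tested. Ccne2 shares 609 of 3495 bases with Ints8, Cdk4 641 of 3249 with Tspan31 and Ccnd3 361 of 8775 with Bysl. Ccnd1 shares 1100 of 4709 bases with LTO1, and Ccnd2 and Cdk6 share smaller stretches with antisense RNA genes. Ccne1, Cdkn1b and Cdkn2a share none in the GENCODE M21 annotation.

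With differentiation of wild-type cells, 4 of the 10 members differed at least 2-fold. In WT_NP against WT_ES, Ccnd2 was higher, and Ccnd1, Ccne1 and Cdkn2a were lower. Over all 14086 genes compared, 16.2% were at least 2-fold higher and 11.3% lower. The median log2 ratio was 0.01 over the members and 0.01 over all genes. As deposited, before scaling, the median gene had a log2 ratio of -0.82, 6.4% of genes were higher and 41.7% lower, and 5 members were lower, with Ccnd3 and Cdk6 added. Scaled to the FPKM sum, 6.84% were higher and 35.6% lower, and scaled to 15 housekeeping genes 23.4% and 6.99%. The sign of Ccne2, Cdk4, Cdk6, Cdkn1b and Rb1 in this comparison depended on the scaling.

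In the knockout, DKO_NP against DKO_ES, Ccnd2 was at least 2-fold higher and Ccne1 lower, against 11.8% and 11.2% of 14050 genes. The median log2 ratio was 0.53 over the members and -0.03 over all genes. Ccnd2, Ccne2, Cdk4, Cdkn1b, Cdkn2a and Rb1 were higher in DKO_NP under every scaling used, and Ccne1 lower. The Cdkn2a log2 ratio was 0.01 as deposited. With scaling to the FPKM sum, 6 members were at least 2-fold higher and none lower, against 26.7% of all genes higher and 5.62% lower. With scaling to housekeeping genes 3 were higher and none lower, against 15.4% and 8.33%. As deposited, 7.84% of all genes were higher and 21.8% lower, with Ccnd2 again higher and Ccne1 lower.

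**Figure D3:**
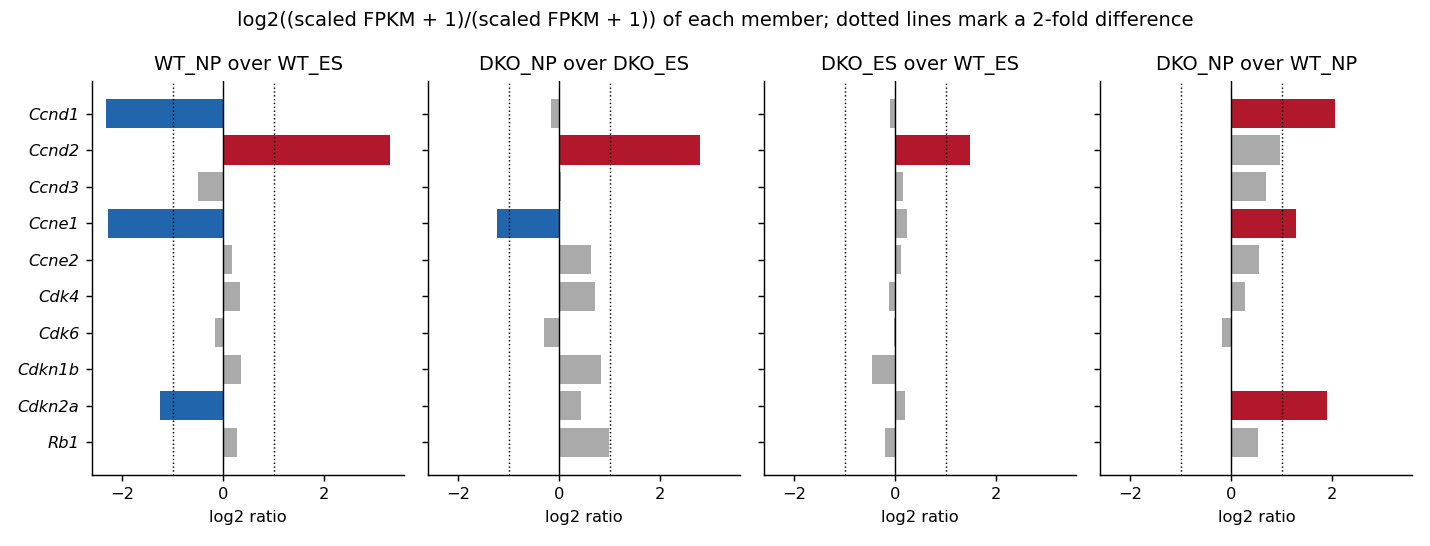
Log2 ratio of each member (1 scaled FPKM added to both values) in the 4 comparisons, with dotted lines at a 2-fold difference. Red bars are members at least 2-fold higher, blue bars at least 2-fold lower, and grey bars lie between; Ccnd2 is red in the first 3 panels, and Ccnd1, Ccne1 and Cdkn2a are red in DKO_NP over WT_NP.

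Before differentiation the knockout differed at 1 member. In DKO_ES against WT_ES, Ccnd2 was at least 2-fold higher and no member was lower, against 2.56% and 1.15% of 13596 genes. The Ccnd2 log2 ratio of 1.48 lay at percentile 98.7 of all genes compared, and with a pseudocount of 5 it fell short of the mark. The median over the members was 0.04, against 0.01 over all genes. Scaled to the FPKM sum, 1.81% of all genes were higher and 2.46% lower, with the same call for Ccnd2. The next largest differences were Cdkn1b, with a log2 ratio of -0.46, and Ccne1, with 0.24.

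At day 6 the knockout stood apart at 3 members. In DKO_NP against WT_NP, Ccnd1, Cdkn2a and Ccne1 were at least 2-fold higher and none was lower, against 4.76% of 13601 genes higher and 7.99% lower. Their log2 ratios of 2.05, 1.89 and 1.28 lay at percentiles 98.97, 98.75 and 96.96 of all genes. The median was 0.61 over the members and 0.01 over all genes. Besides these, Ccnd2, Ccnd3, Ccne2, Cdk4 and Rb1 were higher in DKO_NP under every scaling used, and the sign of Cdk6 and Cdkn1b depended on it. As deposited, 10.2% of all genes were higher and 3.9% lower, and 5 members were at least 2-fold higher, with Ccnd2 and Ccnd3 added. Scaled to the FPKM sum, 51.9% of all genes and 9 members were higher, against 1.96% of genes and no member lower. This comparison shares WT_NP with the wild-type differentiation comparison, so the low WT_NP values of Ccnd1, Ccne1 and Cdkn2a enter both.

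The difference of the differentiation log2 ratios, DKO minus WT, sets the 2 genotypes side by side and was 1 or more for 3 of the 10 members, against 4.31% of 14713 genes, and -1 or less for none, against 8.81%. As deposited it was 1 or more for 5 members and 11.8% of genes, scaled to the FPKM sum for 9 members and 63.6% of genes, and scaled to housekeeping genes for 2 members and 3.8% of genes. With a pseudocount of 5 it was 1 or more for 2 members and 1.73% of genes. It was 2.15 for Ccnd1, where the ratio was -0.16 in DKO cells and -2.31 in WT cells. For Cdkn2a it was 1.69, with ratios of 0.44 in DKO cells and -1.25 in WT cells. For Ccne1 it was 1.04, with ratios of -1.24 in DKO cells and -2.28 in WT cells, but 0.93 with scaling to housekeeping genes and 0.92 with a pseudocount of 5. For Ccnd2 it was -0.52, with ratios of 2.79 in DKO cells and 3.30 in WT cells, and its sign turned with scaling to the FPKM sum. The median difference was 0.50 over the members and 0.00 over all genes. None of these differences was tested, since there is 1 library for each value.

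**Figure D4:**
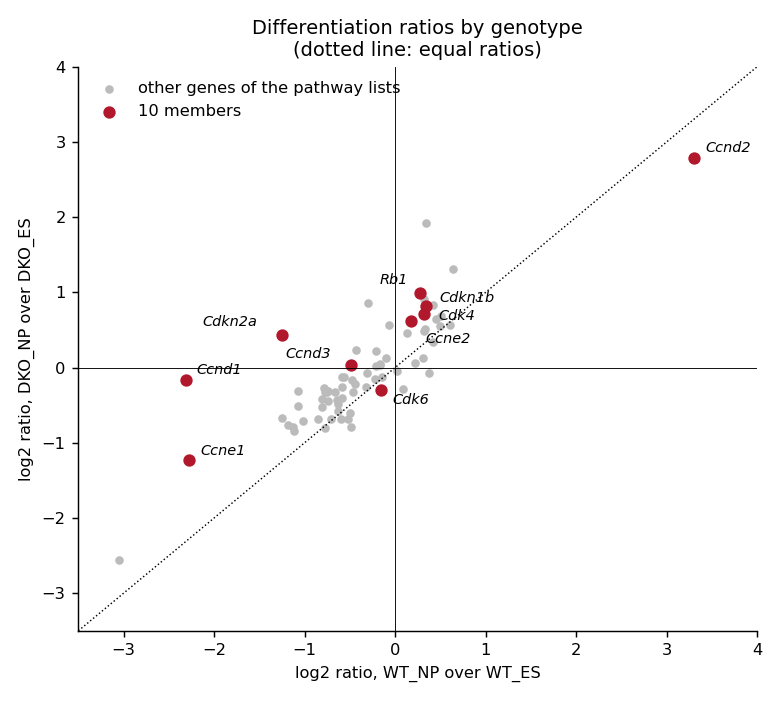
Log2 ratio of NPC over ES cell library in WT cells (horizontal axis) and in DKO cells (vertical axis), for the 10 members in red and the other genes of the pathway lists in grey; the dotted line marks equal ratios. Ccnd1 (-2.31 in WT cells, -0.16 in DKO cells), Ccne1 and Cdkn2a lie above the line, and Ccnd2 lies far out in both genotypes.

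Other genes of the pathway were read from lists of 62 genes. Of 5 further CDK inhibitors, 2 were at least 2-fold higher in DKO_NP than in WT_NP among 4 compared, and none was lower, against 4.76% and 7.99% of all genes. Cdkn1c, the imprinted gene of the inhibitor p57, stood at 89.4 scaled FPKM in DKO_NP, 26.2 in WT_NP, 22.9 in DKO_ES and 20.4 in WT_ES, so that DKO_NP was 3.42-fold above WT_NP (3.20 to 3.65). Cdkn2c, which encodes the CDK4 and CDK6 inhibitor p18INK4c, stood at 4.40 in DKO_NP, 1.04 in WT_NP, 1.86 in DKO_ES and 0.641 in WT_ES, with DKO_NP 4.24-fold above WT_NP (2.78 to 6.66, from 28 reads in WT_NP). Its log2 ratio was 1.41, and 0.64 with a pseudocount of 5, short of the mark. Cdkn2b, the neighbour of Cdkn2a and the gene of p15INK4b, stood at 3.70 in DKO_NP, 2.61 in WT_NP, 3.02 in DKO_ES and 3.16 in WT_ES. Cdkn1a, the p53 target p21, stood at 15.2 in DKO_NP, 21.1 in WT_NP, 16.7 in DKO_ES and 23.4 in WT_ES. Its order between NPC libraries turned with scaling to the FPKM sum. Cdkn2d was below 1 scaled FPKM in all 4 libraries. Higher levels in DKO_NP therefore included inhibitor genes as well as cyclin genes.

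Downstream of Rb1, the E2F genes and their dimer partners showed smaller differences. None of 10 was 2-fold apart in any of the 4 comparisons with median scaling. As deposited, 6 were at least 2-fold lower in WT_NP against WT_ES (41.7% of all genes) and 1 higher in DKO_NP against WT_NP (10.2%). Scaled to the FPKM sum, 4 were lower in the first comparison (35.6% of all genes) and 7 higher in the second (51.9%). In DKO_NP against DKO_ES, 4 were higher with that scaling (26.7% of all genes), and Tfdp1 alone with scaling to housekeeping genes (15.4%). With median scaling the median log2 ratio was 0.16 in DKO_NP against WT_NP and -0.20 in WT_NP against WT_ES. Over the 15 housekeeping genes these medians were 0.21 and -0.40. The furthest apart between NPC libraries was Tfdp1, the common dimer partner of E2F proteins, at 139 scaled FPKM in DKO_NP, 93.2 in WT_NP, 76.5 in DKO_ES and 115 in WT_ES. Next were E2f8 and E2f7, with log2 ratios of 0.34 and -0.34 in DKO_NP against WT_NP. The E2f7 sign turned as deposited and with scaling to the FPKM sum, and so did that of E2f4. E2f1, an activator, stood at 14.6 in DKO_NP, 11.5 in WT_NP, 18.4 in DKO_ES and 19.9 in WT_ES, and E2f4, which acts mostly as a repressor with pocket proteins, at 35.4 in DKO_NP, 37.2 in WT_NP, 47.7 in DKO_ES and 66.1 in WT_ES. Of the other pocket protein genes, Rbl1 stood at 16.0 in DKO_NP, 15.1 in WT_NP, 10.6 in DKO_ES and 10.5 in WT_ES, and Rbl2 at 3.99 in DKO_NP, 3.55 in WT_NP, 4.95 in DKO_ES and 4.67 in WT_ES.

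The 16 target genes of E2F in S phase had a median log2 ratio of 0.38 in DKO_NP against WT_NP. None was 2-fold apart there, against 4.76% of all genes higher and 7.99% lower. In WT_NP against WT_ES the median was -0.61, with 2 of the 16 at least 2-fold lower, against 11.3% of all genes. The 2 were Mybl2, a transcription factor gene of proliferating cells, at 32.4 scaled FPKM in DKO_NP, 26.1 in WT_NP, 195 in DKO_ES and 223 in WT_ES, and Mcm2, a subunit of the replicative helicase, at 113 in DKO_NP, 76.2 in WT_NP, 141 in DKO_ES and 162 in WT_ES. In DKO_NP against DKO_ES the median was -0.33, with Mybl2 alone 2-fold lower, against 11.2% of all genes. The 15 housekeeping genes had medians of 0.21 in DKO_NP against WT_NP, -0.40 in WT_NP against WT_ES and -0.36 in DKO_NP against DKO_ES. Scaled to those genes, the medians of the 16 targets were 0.28, -0.26 and -0.09 in the same order. Pcna, the sliding clamp of DNA polymerase, stood at 356 in DKO_NP and 229 in WT_NP. The log2 ratios of DKO_NP against WT_NP furthest from 0 in this list were those of Pcna (0.63), the helicase subunit Mcm5 (0.61) and Mcm2 (0.57). The replication licensing factor Cdt1 stood at 49.3 in DKO_NP and 72.7 in WT_NP, an order that turned with scaling to the FPKM sum.

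Among 9 other cyclins and kinases, Ccnb1 and Ccnb2, the mitotic B-type cyclins, were at least 2-fold lower in WT_NP than in WT_ES. Their log2 ratios were -1.12 and -1.08, and 11.3% of all genes were at least 2-fold lower in that comparison. No gene of the list was 2-fold apart in the other comparisons with median scaling. The list median was 0.30 in DKO_NP against WT_NP, beside 0.21 over the 15 housekeeping genes. Ccna2 (0.48), Ccnb1 (0.42) and Ccnh (0.39) were furthest from 0 there. Of 8 mitosis genes, Cdc20, Ccnf and Aurka were at least 2-fold lower in WT_NP than in WT_ES, against 11.3% of all genes. Their log2 ratios were -1.19, -1.13 and -1.02. None of the 8 was 2-fold apart between NPC libraries, against 4.76% of all genes higher in DKO_NP and 7.99% lower. Their median there was 0.20, beside 0.21 over the housekeeping genes. Aurka (0.46), Top2a (0.39) and Cdc20 (0.31) were furthest from 0 there. Mki67, the proliferation antigen, stood at 88.4 scaled FPKM in DKO_NP, 85.7 in WT_NP, 63.1 in DKO_ES and 68.6 in WT_ES. None of 7 genes compared of the ubiquitin ligases that act on G1 regulators was 2-fold apart in any comparison with median scaling. Their median was 0.32 in DKO_NP against WT_NP, beside 0.21 over the housekeeping genes. Fbxw7 (0.53), Cul1 (0.47) and Skp1a (0.41) were furthest from 0 there. In WT_NP against WT_ES, 4 of the 7 were at least 2-fold lower as deposited, against 41.7% of all genes. In DKO_NP against WT_NP, 6 of the 7 were higher with scaling to the FPKM sum, against 51.9% of all genes. Skp2, Cul1 and Fbxw7 were higher in DKO_NP against DKO_ES with that scaling (26.7% of all genes), and Cul1 with scaling to housekeeping genes (15.4%). Skp1a was lower in that comparison as deposited (21.8%). Skp2, which targets p27, stood at 31.9 in DKO_NP, 25.3 in WT_NP, 23.0 in DKO_ES and 23.1 in WT_ES. Of the Myc genes, Mycn was at least 2-fold lower in WT_NP than in WT_ES (log2 ratio -1.25), as were 11.3% of all genes. Mycl1 was at least 2-fold higher in DKO_NP than in DKO_ES (1.31), as were 11.8% of all genes. Myc itself stood at 9.01 in DKO_NP, 11.8 in WT_NP, 9.56 in DKO_ES and 8.92 in WT_ES. In DKO_NP against WT_NP the log2 ratios were 0.99 for Mycl1, 0.38 for Mycn and -0.36 for Myc. The Myc sign turned as deposited and with scaling to the FPKM sum. Mycl1 passed the 2-fold mark there as deposited (10.2% of all genes higher) and with a pseudocount of 0.1 (6.83%). With scaling to the FPKM sum (51.9%), Mycl1, Mycn and Cdc25a passed it. Scaled to housekeeping genes, Mcm2, Ccnb1, Ccnb2, Cdc20, Ccnf, Aurka and Mycn were under 2-fold lower in WT_NP than in WT_ES, while Aurka was so also with a pseudocount of 5, and as deposited Mycl1 was under 2-fold higher in DKO_NP than in DKO_ES.

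With scaling to the FPKM sum, under which 51.9% of all genes were at least 2-fold higher in DKO_NP than in WT_NP, so were 14 of the 16 E2F targets, 7 of 8 compared cyclins and kinases and 8 of 8 mitosis genes. As deposited, 14 of the E2F targets, 7 of the cyclins and kinases and 7 of the mitosis genes were at least 2-fold lower in WT_NP than in WT_ES, as were 41.7% of all genes. In DKO_NP against DKO_ES as deposited, 4 of the E2F targets, 3 of the cyclins and kinases and 5 of the mitosis genes were lower, against 21.8% of all genes.

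**Figure D5:**
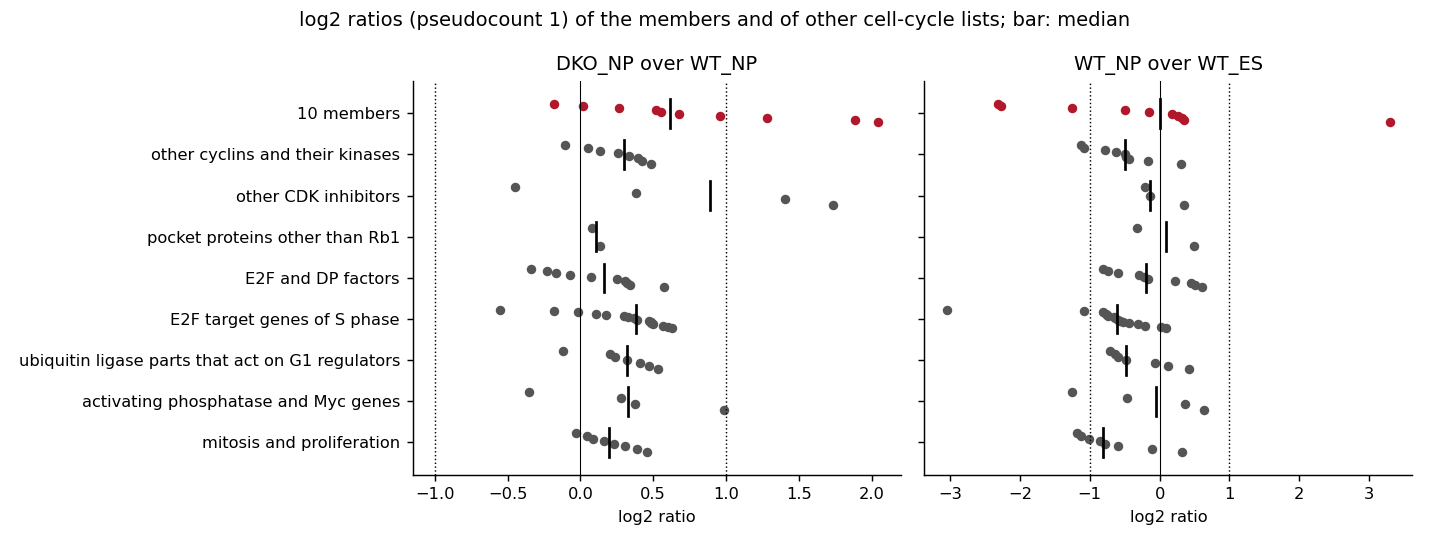
Log2 ratios (1 scaled FPKM added) of the 10 members in red and of 8 other cell-cycle lists in grey, left for DKO_NP over WT_NP and right for WT_NP over WT_ES; each point is 1 gene at or above 1 FPKM in either library, the bar is the list median and dotted lines mark a 2-fold difference. Between NPC libraries the members reach 2.05, and the only other points past 2-fold are the inhibitors Cdkn1c and Cdkn2c.

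The genes with profiles most like those of Ccnd2 and Ccne1, the 2 members with the widest range, were sought among 10038 other genes at or above 5 FPKM in any library, leaving out Rik, Gm, LOC, Mir and Sno names. The measure was the Euclidean distance between centred log2 profiles over the 4 libraries, with 1 scaled FPKM added to each value. Values from 4 libraries are few points for such a search. For Ccnd2 the 5 nearest were Pax6, Grrp1, Col2a1, Nsg2 and Car14, at distances of 0.85 to 0.99. Pax6, a transcription factor gene of neural progenitors, stood at 38.4 scaled FPKM in DKO_NP, 19.6 in WT_NP, 8.39 in DKO_ES and 2.999 in WT_ES. For Ccne1 they were Rbm44, Tcfl5, Zscan4a, Hsp90aa1 and Notum, at 0.08 to 0.19. In WT_NP, Rbm44, Zscan4a and Notum stood at 0.267, 0.667 and 0.556 scaled FPKM, where the added 1 FPKM narrows their ratios. Small distances for these genes therefore do not mean equal folds. Hsp90aa1, a heat shock chaperone gene, stood at 909 in DKO_NP, 447 in WT_NP, 2295 in DKO_ES and 2030 in WT_ES. Reads of Zscan4a cannot be told with certainty from those of its near-identical copies.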

How the data were processed

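RNA of 4 libraries, 1 per group, was sequenced from rRNA-depleted total RNA, single-end, per the labels' protocols. Bowtie, TopHat and mm9 are named in the submitters' processing notes; not given in the sources used here were the program behind the values, its annotation and its treatment of multiply mapped reads. The authors deposited FPKM per gene symbol; 18 blank rows were left out, and 0 columns were unmapped.

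From these, median-scaled FPKM, ratios and counts at 2-fold were computed with Python 3.11.15, pandas 2.3.3 and scipy 1.17.1, and checked on simulated data. Low FPKM values are multiples of what 1 read is worth: 1012 of 1773 low genes (57.1%) came out whole within 0.04 read, which gave relative denominators of 1.82 (DKO_NP), 2.63 (WT_NP), 1.09 (DKO_ES) and 1 (WT_ES). Lengths of 273 single-transcript genes in GENCODE M21 turned these into about 24.8, 35.9, 14.85 and 13.65 M reads in the same order, so read numbers and intervals are approximate. Reads per member used its shortest CCDS transcript. Exact intervals (Clopper-Pearson on the 2 read numbers) cover counting error only, since PCR copies are not independent molecules.

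The members and lists were chosen with earlier results of these data known. Named genes were all members, the 5 nearest profiles of Ccnd2 and Ccne1, and, per cell-cycle list, genes counted at 2-fold and the 3 furthest apart in each comparison. Of the 3, those of DKO_NP against WT_NP are all given and those of the other comparisons in part; Mki67, Skp2 and Cdkn2d were added after their values were seen. Alternatives were FPKM as deposited, scaling to the FPKM sum or to 15 housekeeping genes, pseudocounts of 0.1 and 5, no filter and a filter at 5 FPKM.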

Additional observations from a re-analysis of the deposited data

Results flagged for a closer look

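Of the 10 members, Cdkn2a differed in opposite directions with differentiation in the 2 genotypes: DKO_NP was 1.39 times DKO_ES while WT_NP was 0.357 times WT_ES. Between genotypes, 3 members went opposite ways at day 6 and day 0. Ccnd1 in DKO_NP was 4.48 times WT_NP, and in DKO_ES 0.930 times WT_ES. Cdk4 in DKO_NP was 1.20 times WT_NP, and in DKO_ES 0.923 times WT_ES. Rb1 in DKO_NP was 1.48 times WT_NP, and in DKO_ES 0.854 times WT_ES. In each case both counting intervals lay off 1 with median scaling, and the signs held under every scaling used, but as deposited the Cdkn2a log2 ratio of DKO_NP over DKO_ES was only 0.01. The difference between the groups was not tested, as each value rests on 1 library per group.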

How the results depend on the processing

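No result reversed its called direction, and filters (none, or 5 FPKM) changed no count of members. As deposited, 5 members were at least 2-fold lower in WT_NP against WT_ES (41.7% of all genes) and 5 higher in DKO_NP against WT_NP (10.2%). Scaled to the FPKM sum, 6 members were higher (26.7% of all genes) and 0 lower (5.62%) in DKO_NP against DKO_ES. In DKO_NP against WT_NP, 9 were higher with that scaling (51.9% of all genes). Scaled to 15 housekeeping genes, 3 were higher (15.4% of all genes) and 0 lower (8.33%) in DKO_NP against DKO_ES. With a pseudocount of 0.1, 2 were higher in DKO_NP against DKO_ES (15.4% of all genes), and with one of 5, 0 were higher in DKO_ES against WT_ES (1.16% of all genes). The median difference of differentiation log2 ratios over the members, DKO minus WT, was 0.50, and 0.99 as deposited, 1.91 with the FPKM sum and 0.39 with housekeeping genes. Ccnd2 (WT_NP and DKO_NP against their ES cell libraries), Ccne1 and Ccnd1 (WT_NP against WT_ES), and Ccnd1, Ccne1 and Cdkn2a (DKO_NP against WT_NP) stayed past 2-fold under all 7 alternatives. No paired analysis was possible because each group holds 1 library, and for the same reason no library could be left out. Depth limits Cdkn2a most, with about 68 reads in WT_NP. Against the median scaling, the FPKM sum moved log2 ratios of scaled FPKM, taken without the pseudocount, by -0.84 (WT_NP against WT_ES), 0.62 (DKO_NP against DKO_ES), -0.32 (DKO_ES against WT_ES) and 1.14 (DKO_NP against WT_NP), and housekeeping genes by 0.35, 0.24, 0.01 and -0.10 in the same order. Causes were not tested.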
